A study of Mus musculus with 1 sample.

Results

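The poly(A) tails of tubulin mRNAs were examined in wild-type mouse epiblast-like cells (EpiLCs). The genes were 10 named tubulins: the α-tubulins Tuba1a, Tuba1b, Tuba1c and Tuba4a, the β-tubulins Tubb2a, Tubb2b, Tubb4b, Tubb5 and Tubb6, and the γ-tubulin Tubg1. They were listed by symbol with earlier results of these data known, so that all 10 had reads is not a finding. In all, 12842 genes had a tailed read. The cells were of the ICR strain and had been moved 24 h earlier from naïve embryonic stem cell culture into N2B27 with activin A, bFGF and KSR on Matrigel. PAIso-seq reads full-length cDNA together with its poly(A) tail on the PacBio platform, and each read is called a transcript here. The cDNA was amplified and carries no molecular identifier, so some reads may be copies of 1 molecule. The single sample held 2 barcoded replicates, numbered here by barcode. The study calls its replicates independent, without saying whether they came from separate cultures. The Cnot8 knockout cells of the study were not analysed here.

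Microtubules are polymers of a dimer of α- and β-tubulin, while γ-tubulin sits in the ring complex that starts new microtubules. Cells control tubulin mRNA by autoregulation. When free tubulin dimers are in excess, the factor TTC5 binds the first residues of α- and β-tubulin as they leave the ribosome. TTC5 then brings in SCAPER and, through CNOT11, the CCR4-NOT deadenylase complex, which shortens the poly(A) tail before the mRNA is degraded. CNOT8 is a catalytic subunit of that complex.

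The start of the coding sequence is shown because it encodes the residues that TTC5 reads. Each line gives the first 24 coding bases from the GENCODE vM21 transcript (GRCm38), and the capitals mark the first 4 codons.
Tuba1a: ATGCGTGAGTGCatctccatccat
Tuba1b: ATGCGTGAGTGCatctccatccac
Tuba1c: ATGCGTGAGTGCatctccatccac
Tuba4a: ATGCGCGAGTGCatttcagtccat
Tubb2a: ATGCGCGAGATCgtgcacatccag
Tubb2b: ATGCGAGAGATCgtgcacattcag
Tubb4b: ATGAGGGAGATCgtgcacctgcag
Tubb5: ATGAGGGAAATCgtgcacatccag
Tubg1: ATGCCGAGAGAAatcatcacccta
Tuba1a, Tuba1b and Tuba1c shared the same 12 bases in capitals, and each of the other 6 genes shown had its own. Within a class these base differences are synonymous. The first 4 codons read Met-Arg-Glu-Cys in every α gene and Met-Arg-Glu-Ile in every β gene shown. No coding start was obtained here for Tubb6, so it is not shown and was not compared. Tubg1, which is not a target of this autoregulation, starts with codons for other residues, Met-Pro-Arg-Glu.

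The libraries held 246316 nuclear transcripts in replicate 1 and 455660 in replicate 2, counting reads with at least 7 passes around the circular molecule. At this depth 3 reads made up 0.00122% and 0.000658% of nuclear transcripts. The label was checked against marker genes. The formative genes Fgf5, Otx2, Dnmt3b and Pou3f1 were all detected, with 233 and 325 transcripts together, and the core pluripotency genes Pou5f1 and Sox2 had 146 and 242. The 8 naïve markers had 162 and 427, of which Zfp42 alone supplied 129 and 372. Esrrb had 40 transcripts, Tfcp2l1 21, Klf2 12, Nanog 10, Tbx3 4 and Klf4 1, while Prdm14 had none. The fibroblast markers Col1a1, Col1a2 and Col3a1 were at 0 and Thy1 had 2 transcripts. Of the neuron markers, Map2, Dcx and Rbfox3 were at 0, and the neuronal β-tubulin Tubb3 had 10.

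Tubulin mRNA was mostly β-tubulin in these libraries. The 10 genes gave 1518 transcripts in replicate 1 and 2405 in replicate 2, which was 0.616% and 0.528% of nuclear transcripts. The 95% Wilson intervals of 0.586% to 0.648% and 0.507% to 0.549% did not overlap, so the larger share was in replicate 1. Intervals cover counting error only. Tubb5 (ENSMUSG00000001525, GRCm38 chromosome 17, 35833921 to 35838306), the most abundant β-tubulin here, had 614 and 988 transcripts. It ranked 31st by transcripts among 7146 nuclear genes with at least 10. Tubb4b (ENSMUSG00000036752, chromosome 2, 25222160 to 25224702), a widely expressed β-tubulin, had 432 and 610. Together these 2 genes took 67.4% of tubulin transcripts.

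The other 8 members had at most 320 transcripts each. Tuba1a (ENSMUSG00000072235, chromosome 15, 98949837 to 98953703), the α-tubulin of neurons and many embryonic cells, had 104 and 216 transcripts. Tuba4a (ENSMUSG00000026202, chromosome 1, 75214228 to 75219865) had 88 and 149. Tuba1c (ENSMUSG00000043091, chromosome 15, 99029891 to 99038110) had 90 and 122. Tubb2b (ENSMUSG00000045136, chromosome 13, 34126748 to 34130466) had 86 and 124. Fewer than 100 transcripts in all were found for Tubb2a (ENSMUSG00000058672, chromosome 13, 34074274 to 34078007) with 88, Tuba1b (ENSMUSG00000023004, chromosome 15, 98931425 to 98934565) with 81, Tubg1 (ENSMUSG00000035198, chromosome 11, 101119938 to 101126419) with 74 and Tubb6 (ENSMUSG00000001473, chromosome 18, 67390717 to 67402749) with 57.

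**Figure D1:**
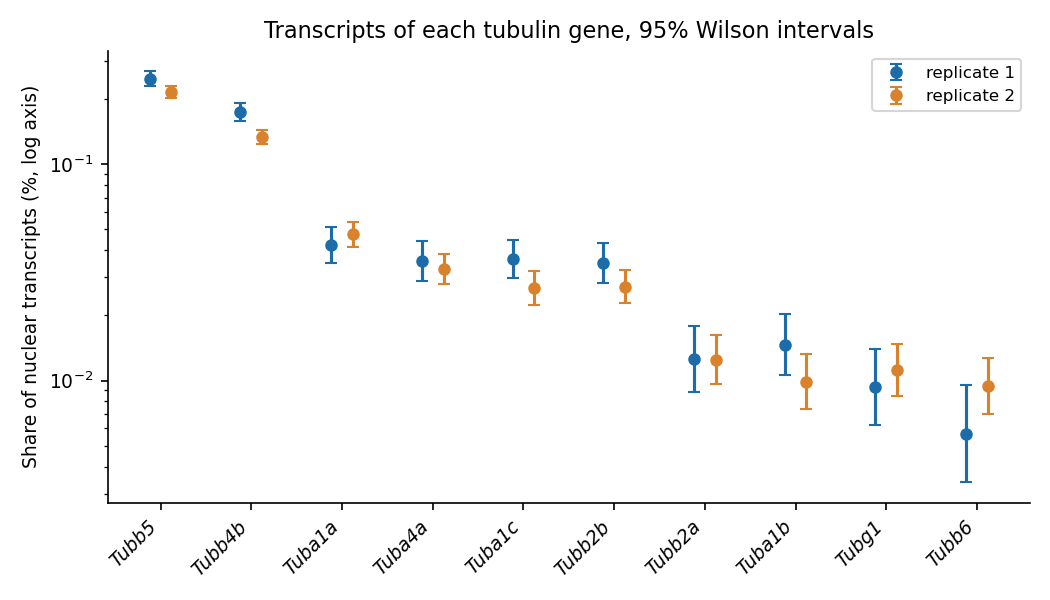
Share of nuclear transcripts (percent, log axis) of each tubulin gene in replicate 1 and replicate 2, with 95% Wilson intervals as bars. Tubb5 and Tubb4b stand above the other 8 genes in both replicates.

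α-tubulin transcripts were far fewer than β-tubulin transcripts, although the proteins are used in equal amounts. They made up 21.3% (19.3% to 23.4%) and 22.6% (21.0% to 24.3%) of α and β together in the 2 replicates. These are shares of reads, with 1 read for each full-length cDNA and no scaling to gene length. The numbers for α-tubulin are uncertain, because reads of near-identical genes can be split. The processed pseudogene Gm17383 (ENSMUSG00000058625, chromosome 18, 82338462 to 82339816) had 499 transcripts, more than any α-tubulin gene. Of its 31-base words, 72.6% occur in the Tuba1b transcript, 71.7% in that of Tuba1a and 66.9% in that of Tuba1c. With its reads counted as α, the α share was 31.03% (29.7% to 32.4%). The annotated gene Gm49450 (chromosome 15, 98932137 to 98953551) covers exons of Tuba1a and Tuba1b on the same strand, with 473 and 426 shared exon bases, and no read was assigned to it. Reads without a gene numbered 144083. Their part in the low count of Tuba1b was not tested, since the table gives no alignment positions.

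Most of the 10 named tubulins had long tails compared with other genes. A gene's tail length is the geometric mean over its transcripts, non-A bases included. The median over the 10 genes was 88.0 nt, while the median over 7146 nuclear genes was 76.4 nt and their quartiles lay at 62.4 nt and 88.6 nt. In all, 9 of 10 tubulins lay above the median gene, a position that 50% of all genes hold by definition. Tubb2a was the exception. The 3 tubulin genes outside this list with at least 10 transcripts lay below the median gene, with a median of 70.2 nt. Above the upper quartile of protein-coding genes, 87.4 nt, were 6 of 10 tubulins, against 25% of the 6754 protein-coding genes. In single replicates the median of the members was 82.6 nt and 92.2 nt, and the median gene had 78.0 nt and 76.8 nt, so the gap was larger in replicate 2. The count above the median gene was 7 of 10 in replicate 1 and 9 of 10 in replicate 2.

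Tail length across genes moves with annotated transcript length, and the annotated tubulin transcripts spanned 1598 to 2840 nt. The comparison was therefore repeated, after the data had been seen, with the other protein-coding genes in that range. Their median gene tail was 77.6 nt over 1978 genes, and 9 of 10 tubulins lay above it. Protein-coding genes with shorter transcripts had a median of 86.0 nt over 1190 genes, and those with longer transcripts 69.6 nt over 3576 genes. Tuba4a set the upper end of the range, while most tubulins lay toward its lower end, next to the class with longer tails. The match for transcript length is therefore loose, and a closer match was not tested.

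**Figure D2:**
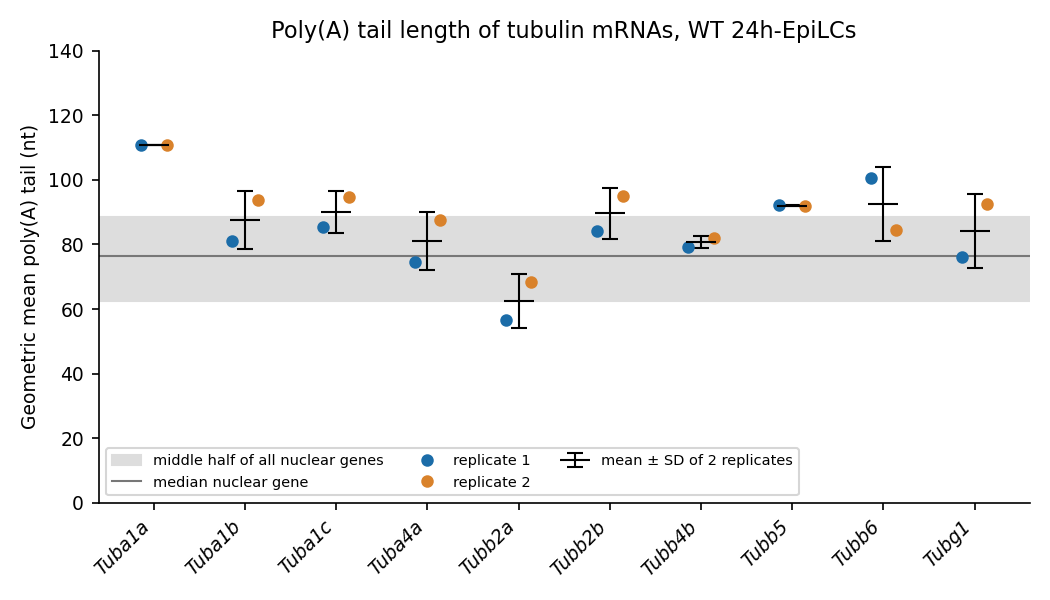
Geometric mean poly(A) tail length (nt) of each tubulin gene in replicate 1 and replicate 2, with the mean and SD of the 2 replicates. The grey band spans the quartiles of 7146 nuclear genes (62.4 nt to 88.6 nt) and the line marks their median of 76.4 nt. Tuba1a stands above and Tubb2a below the other members.

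Tuba1a had the longest tails of the 10 genes. Its geometric means were nearly equal in both replicates, 110.7 nt and 110.8 nt, or 110.8 nt ± 0.0533 (SD, n = 2). Its median tail was 125 nt (114 nt to 134 nt, exact binomial interval) and 117.5 nt (112 nt to 128 nt). Tails over 90 nt made up 74.0% and 73.1% of its transcripts. Of all nuclear genes tested, 96.1% had a shorter value. The value of Tuba1a in each replicate was above those of the other 9 genes in either replicate. It rests on the reads assigned to Tuba1a, which shares sequence with Gm49450 and Gm17383. Whether reads left out for this reason had other tail lengths was not tested.

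The remaining α-tubulins were shorter and varied more between replicates. Tuba1c had 85.5 nt and 94.6 nt (SD 6.46, n = 2). Tuba1b, a widely expressed α-tubulin, had 81.1 nt and 93.9 nt (SD 9.01). Tuba4a, an α-tubulin best known from muscle, brain and platelets, had 74.6 nt and 87.4 nt (SD 9.06). All 3 were thus longer in replicate 2, and their ranges overlapped. Tuba1a exceeded Tuba1c by 25.3 nt and 16.2 nt in the 2 replicates, and Tuba1b by 29.6 nt and 16.9 nt. Each had one sign in both replicates and exceeded its SD of 6.41 nt and 8.95 nt.

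Among the β-tubulins, the abundant Tubb5 had the most even values, with 92.1 nt and 92.0 nt (SD 0.0792, n = 2). Tubb4b had 79.3 nt and 82.1 nt (SD 1.92). Tubb5 was longer by 12.8 nt in replicate 1 and by 9.93 nt in replicate 2, or 11.3 nt ± 2.004 (SD, n = 2). These genes also differed in the share of short tails. For Tubb4b, tails of 6 to 30 nt made up 9.49% (7.07% to 12.6%) and 8.52% (6.56% to 11.01%) of transcripts in replicates 1 and 2. For Tubb5 the share was 5.37% (3.85% to 7.45%) and 3.34% (2.39% to 4.65%). The intervals overlapped narrowly in replicate 1 and were apart in replicate 2. The share in all nuclear protein-coding transcripts was 9.35% and 8.71%, close to that of Tubb4b.

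The neighbouring genes Tubb2a and Tubb2b on chromosome 13 lay far apart in tail length. Tubb2a had the shortest tails of the family, at 56.5 nt and 68.3 nt (SD 8.32, n = 2). Tubb2b, a β-tubulin of the developing nervous system, had 84.1 nt and 95.1 nt (SD 7.79). Both had higher values in replicate 2, and the difference between them was even at 27.6 nt and 26.8 nt, or 27.2 nt ± 0.527 (SD, n = 2). Tails over 90 nt made up 25.8% and 31.6% of Tubb2a transcripts and 46.5% and 64.5% of Tubb2b transcripts. The values of Tubb2a rest on 31 and 57 transcripts. The transcripts share sequence, in that 51.1% of the 31-base words of Tubb2a occur in Tubb2b, and whether reads were exchanged between them was not tested.

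Tubb6 and Tubg1 were the least certain members. Tubb6, another β-tubulin, had 14 transcripts with 100.6 nt and 43 with 84.4 nt (SD 11.4, n = 2). Tubg1 had 23 with 76.2 nt and 51 with 92.4 nt (SD 11.5). Replicate 1 was thus the higher for Tubb6 and the lower for Tubg1.

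By mean of the replicates, the order was Tuba1a, Tubb6, Tubb5, Tuba1c, Tubb2b, Tuba1b, Tubg1, Tuba4a, Tubb4b and Tubb2a. The replicate ranges of neighbours in this order overlapped in 7 of 9 steps. The exceptions were the step from Tuba1a to Tubb6, 18.3 nt, and the step from Tubb4b to Tubb2a, also 18.3 nt. Across the 10 genes the replicates had a Spearman's correlation of 0.539 and a Pearson's correlation of log2 tail lengths of 0.787. Both describe genes that share the 2 libraries. Values were higher in replicate 2 for 8 of 10 tubulins, against 47.1% of the 4286 genes that reached 10 transcripts in both libraries. Over all nuclear transcripts the geometric mean went the other way, from 77.2 nt to 73.9 nt. Their median was 91 nt in both replicates, and tails of 1 to 5 nt made up 1.52% and 2.75%.

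To compare the partners of the dimer, the transcripts of the 4 α-tubulins and of the 5 β-tubulins were pooled by class. In replicate 1 the geometric mean was 89.1 nt over 318 α-tubulin tails and 85.6 nt over 1177 β-tubulin tails. In replicate 2 it was 98.6 nt over 532 and 87.7 nt over 1822. The difference, α minus β, was 3.48 nt and 10.9 nt, or 7.18 nt ± 5.24 (SD, n = 2). The medians were 98 nt and 97 nt in replicate 1 and 108 nt and 98 nt in replicate 2. With 2 replicates an exact paired permutation test cannot give a two-sided p below 0.5, so none was run.

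The difference rested on Tuba1a, which supplied 37.6% of its transcripts. Without Tuba1a, the α genes had 86.5 nt over both replicates and the β genes 86.9 nt. The difference was then -5.47 nt in replicate 1 and 3.32 nt in replicate 2, with an SD of 6.22 nt. It also depended on which genes were counted. With Tuba3a added to α and Tubb3 to β, an alternative chosen after seeing the data, α minus β came to 0.011 nt and 10.1 nt in the 2 replicates (SD 7.15, n = 2), so almost nothing was left of the difference in replicate 1. With the reads of both replicates pooled, leaving out any other single gene kept α longer, by 4.69 nt without Tubb4b to 13.6 nt without Tubb5. The sign within each replicate is not given for these. In replicate 1 Tubb4b had 79.3 nt against 85.6 nt for β, so the difference of 3.48 nt there is smaller without it. At the level of genes, the 4 α-tubulins had a median of 89.3 nt (82.5 nt to 110.8 nt) and the 5 β-tubulins 88.1 nt (63.9 nt to 92.0 nt), so the classes overlapped. In replicate 1 the median α gene was the shorter, at 83.3 nt against 84.1 nt, and in replicate 2 it was the longer, at 94.2 nt against 84.4 nt.

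**Figure D3:**
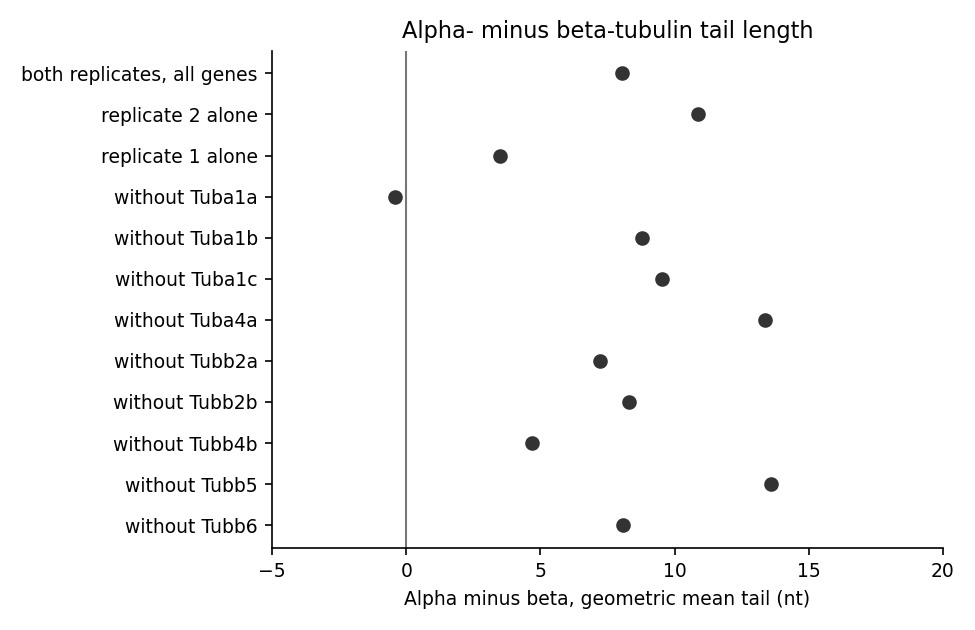
Difference of the geometric mean tail (nt), α-tubulin minus β-tubulin, over all transcripts, for each replicate alone and with each gene left out in turn. The difference is 8.04 nt with all genes and falls to -0.414 nt without Tuba1a.

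**Figure D4:**
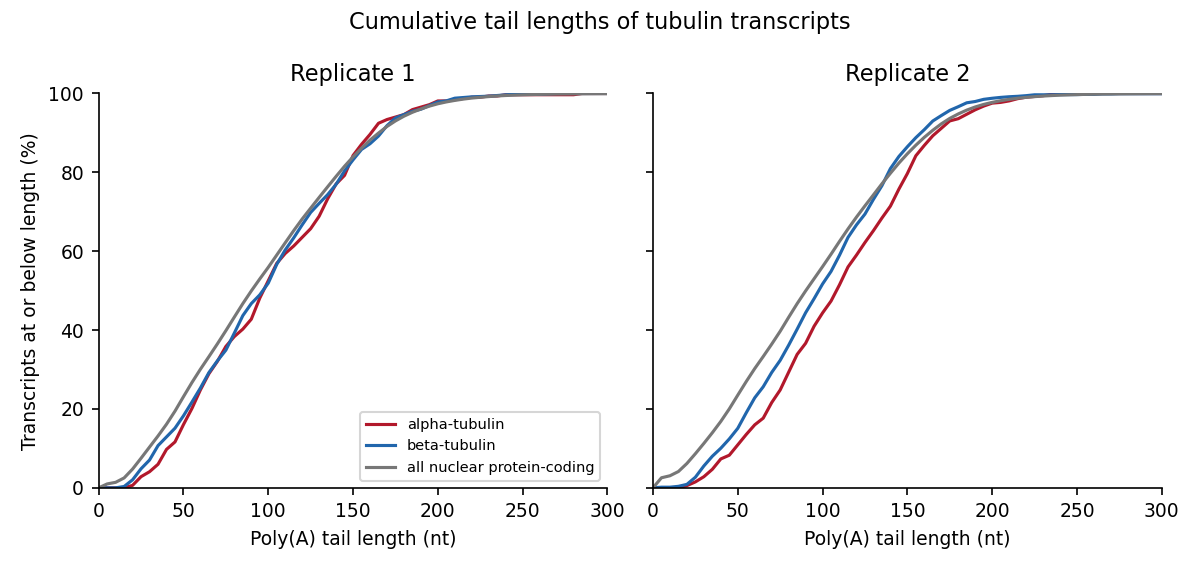
Cumulative share of transcripts (percent) by poly(A) tail length (nt) for α-tubulin, β-tubulin and all nuclear protein-coding genes in each replicate. Below about 60 nt both tubulin curves run under the protein-coding curve, and α runs under β most clearly in replicate 2.

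Very short tails were scarce among tubulin mRNAs. Tubulin tails of 1 to 5 nt numbered 0 of 1518 in replicate 1, which allows a share of up to 0.198% if 3 reads are taken as the limit, or 0.252% as the upper Wilson bound. In replicate 2 they numbered 3 of 2405, or 0.125% (0.0424% to 0.366%). The share in all nuclear protein-coding transcripts was 0.988% (0.947% to 1.03%) and 2.55% (2.50% to 2.60%). In protein-coding genes of the same range of transcript length it was 0.584% (0.532% to 0.640%) and 1.55% (1.49% to 1.62%). The tubulin intervals lay below both. The 3 tails came from Tubb2b, Tubb4b and Tubb5, and each was a single A. α-tubulin had 0 in 850, which allows up to 0.353% by the limit of 3 reads. No such tail was found for 7 of 10 tubulins, against 55.6% of protein-coding genes with at least 10 transcripts and 37.1% of those with at least 50. Leaving out these shortest tails moved the median gene from 76.4 nt to 81.2 nt, and 9 of 10 tubulins still lay above it. With tails of at least 15 nt the median gene had 83.1 nt and 7 of 10 tubulins lay above it.

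Tails over 90 nt were somewhat more frequent in the pooled tubulin transcripts, though not in every gene, and tails over 200 nt were not. In replicate 1, 54.0% of tubulin transcripts (51.5% to 56.5%) had tails over 90 nt, and in replicate 2 57.4% did (55.4% to 59.3%), against 50.1% of protein-coding transcripts in each, which lay below both intervals. In replicate 1 Tuba1b (41.7%), Tuba4a (44.3%), Tubb2a (25.8%), Tubb2b (46.5%), Tubb4b (49.5%) and Tubg1 (47.8%) lay below the protein-coding share. In replicate 2 only Tubb2a did, with 31.6%. Protein-coding genes in the tubulin range of transcript length had 50.2% and 51.0%, and those with shorter transcripts 56.6% and 56.3%. Tails over 200 nt made up 2.04% (1.44% to 2.88%) and 1.54% (1.12% to 2.11%) of tubulin transcripts. The protein-coding shares were 2.61% (2.54% to 2.67%) and 2.25% (2.21% to 2.30%), inside the tubulin interval in replicate 1 and above it in replicate 2. Across the 3923 pooled transcripts the 10th percentile was 39 nt and the 90th 162 nt, while for protein-coding transcripts they were 29 nt and 164 nt.

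Typical tails of the genes at either end of the order are given here as deposited, each being the read nearest to the median of its gene, with ties going to the read with the fewest bases other than A. They held no base other than A, which the choice among ties favoured. Over both replicates, 10.6% of Tuba1a tails and 6.82% of Tubb2a tails held such a base.
Tuba1a, 122 nt: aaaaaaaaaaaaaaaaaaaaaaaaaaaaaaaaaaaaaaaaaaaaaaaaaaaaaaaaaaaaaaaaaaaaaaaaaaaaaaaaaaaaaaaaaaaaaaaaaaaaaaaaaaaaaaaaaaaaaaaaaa
Tubb2a, 69 nt: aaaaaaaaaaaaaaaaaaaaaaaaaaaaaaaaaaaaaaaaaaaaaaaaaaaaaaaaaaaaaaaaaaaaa

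Bases other than A were also examined, since terminal uridines, read as T, are known to mark short tails for decay. A T ended 3.23% of tubulin tails in replicate 1 (2.45% to 4.24%) and 2.20% in replicate 2 (1.69% to 2.87%). For protein-coding transcripts it was 4.18% (4.10% to 4.27%) and 2.77% (2.72% to 2.83%), so the tubulin share was the lower in both, with intervals that overlapped within each replicate. With the reads of both replicates pooled, the share was 2.60% (2.15% to 3.15%) for tubulins and 3.27% (3.23% to 3.31%) for protein-coding transcripts. These intervals were apart, but they cover counting error only, and the libraries differed in this share. By class, α-tubulins had 1.89% and 3.20% in the 2 replicates and β-tubulins 3.65% and 1.92%. In replicate 2 the α share thus lay above the protein-coding share, while the other class values lay below it. Among tubulin tails of 16 to 30 nt, 25 of 205 ended in T, or 12.2% (8.40% to 17.4%), against 13.7% of protein-coding tails of that length. The share fell to 1.40% (0.901% to 2.18%) in tubulin tails over 120 nt. Of 102 tubulin tails that ended in T, 80 had a single T, 21 had 2 and 1 had 3. Any base other than A was present in 11.1% and 8.61% of tubulin tails, against 12.4% and 9.77% of protein-coding tails.

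Short tubulin tails with terminal T are shown as examples, with bases other than A in capitals.
Tubb4b, replicate 1, 13 nt: aaaaaaaaaaaaT
Tubb4b, replicate 1, 16 nt: aaaaaaaaaaaaaaTT
Tubb5, replicate 1, 20 nt: aaaaaaaaaaaaaaaaaaTT
Tuba1c, replicate 2, 22 nt: aaaaaaaaaaaaaaaaaaaaTT
Tubg1, replicate 2, 22 nt: aaaaaaaaaaaaaaaaaaaaaT
In all, 26 tubulin tails of at most 30 nt ended in T. Of these, 15 belonged to Tubb4b, 6 to Tubb5, 3 to α-tubulins and 1 each to Tubb2b and Tubg1, so the examples do not show how often each gene had such a tail.

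The annotated 3′ ends were searched for the polyadenylation hexamers AATAAA and ATTAAA on the sense strand, in the last 50 bases of 1 transcript a gene. AATAAA was found in 6 of 10 tubulins, Tuba1a, Tuba1c, Tubb2a, Tubb5, Tubb6 and Tubg1, ending 13 to 21 bases before the transcript end. It occurred in 58.6% of 21894 protein-coding genes. ATTAAA was found in Tubb4b, and in 16.05% of those genes. Neither was found in this window of Tuba1b, Tuba4a and Tubb2b. Both the longest-tailed gene, Tuba1a, and the shortest-tailed, Tubb2a, held AATAAA.

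Of 10 further tubulin genes, 5 had no read. Tuba3b, Tuba8, Tubal3, Tubb1 and Tubb4a were at 0, Tubg2 had 1 and Tube1 had 8. Tuba3a, an α-tubulin known from testis, had 36 and 30 transcripts, more in all than Tubb6, with tails of 60.2 nt and 84.4 nt (SD 17.2, n = 2). Tubb3 had 75.9 nt from 10 transcripts and the centriolar δ-tubulin gene Tubd1 had 64.3 nt from 22, with 90.4 nt and 54.8 nt in the 2 replicates. All 3 genes with at least 10 transcripts lay below the median gene. Of the annotated pseudogenes with a tubulin symbol, Tubb4b-ps1 had 3 transcripts, and Tubb4b-ps2 and Tubb2a-ps2 had none.

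Genes that fold tubulin were examined next. Of 13 cofactors and prefoldin subunits, 12 had at least 10 transcripts, with a median of 84.5 nt, and 10 of these lay above the median gene. The prefoldin subunits Vbp1 and Pfdn2 had 81.2 nt from 165 and 98.0 nt from 123 transcripts. Pfdn6 had 78.6 nt from 79 and the cofactor Tbcb 79.8 nt from 82. Of the autoregulation factors, Ttc5 had 64.7 nt ± 7.89 (SD, n = 2) from 55 transcripts, Cnot11 had 82.8 nt ± 9.44 from 26, and Scaper had 4 transcripts only.

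Genes that bind or modify microtubules had lower median tail lengths than the 10 tubulins, with overlapping ranges and no matching for transcript length. Of 16 listed microtubule-binding genes, 14 were measured, with a median of 63.7 nt (27.6 nt to 88.4 nt), and 3 lay above the median gene. The spindle factor Tpx2 had 69.7 nt from 407 transcripts and Prc1, which bundles microtubules of the central spindle, 61.1 nt from 163. The plus-end protein Mapre1 had 78.5 nt from 299 and Tacc3 81.8 nt from 153. Of 8 genes of the γ-tubulin complex, 6 were measured, with a median of 61.4 nt, and 1, Tubgcp2, lay above the median gene with 83.0 nt from 49 transcripts. Tubgcp5 had 63.9 nt from 32 transcripts, but 111.5 nt in replicate 1 and 56.2 nt in replicate 2. Nedd1 had 46.0 nt from 25 transcripts, with 69.0 nt and 41.6 nt. Mzt1 had 13.6 nt from 23 transcripts, of which 10 had tails of 1 to 5 nt, and its replicates gave 64.2 nt and 9.78 nt. Of 10 genes that modify tubulin, 5 were measured, with a median of 63.0 nt (39.2 nt to 78.7 nt). The polyglutamylase Ttll4 had 40.8 nt from 70 transcripts, with 10 tails of 1 to 5 nt, and the deacetylase Hdac6 78.7 nt from 61, with 63.9 nt and 98.9 nt in the 2 replicates. Ttll12 had 72.2 nt from 20 transcripts and the tyrosine ligase Ttl 63.0 nt from 12, with 97.4 nt and 40.8 nt in the 2 replicates (SD 39.99, n = 2).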

How the data were processed

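A PAIso-seq sample of wild-type 24h-EpiLCs held 2 barcoded replicates. The authors made CCS reads, split them by barcode, mapped them to mm10 with minimap2 (version 2.17), took the soft-clipped 3′ bases as tails, extended them into adjoining A tracts, left out reads without a tail and used featureCounts 2.0.1 for gene assignment. The deposited table gives the barcode, gene, passes, base numbers and tail sequence of each read, without normalization.

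Reads with at least 7 passes were used. Tail length was the number of A plus non-A bases. Of 12962 gene identifiers, 12955 were found in GENCODE vM21 (GRCm38), and mitochondrial genes were left out. Genes with at least 10 transcripts were summarised by the geometric mean. Shares have 95% Wilson intervals and medians exact binomial ones. The members and gene lists were chosen with earlier results of these data known. The rule for named genes took all tubulins and, of each related list, the 4 measured genes with the most transcripts. The median, another shortest tail, other pass filters, transcript minimums and weights, single replicates and single-transcript wells were tried as alternatives. Leaving out each gene, adding Gm17383, or Tuba3a and Tubb3, and the range of transcript lengths were chosen after seeing the data. The scripts, checked on simulated tails, ran under Python 3.11.15 with scipy 1.17.1, pandas 2.3.3 and numpy 2.4.6, and figures were drawn with matplotlib 3.10.9.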

Additional observations from a re-analysis of the deposited data

Results flagged for a closer look

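Reads of tubulin pseudogenes were not used in the comparisons, but they exceeded the 3 reads taken as the limit of detection. Of 13 annotated pseudogenes that share at least 100 words of 31 bases with a tubulin transcript, 6 had reads and 2 had at least 10. Gm17383 had 499 transcripts, 181 in replicate 1 and 318 in replicate 2. Their tails had a geometric mean of 96.4 nt and 95.6 nt (SD 0.544, n = 2). Gm6682 (ENSMUSG00000091269, GRCm38 chromosome 12, 4782170 to 4783515) had 74 transcripts, with 111.5 nt and 119.2 nt (SD 5.40). Of its words, 56.0% occur in the Tuba1b transcript, the closest of the 10 tubulins, with 55.6% in Tuba1c and 54.0% in Tuba1a. Whether these reads are transcripts of the pseudogenes or of an α-tubulin gene was not tested, since the table gives no alignment positions.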

How the results depend on the processing

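No paired analysis was possible because only 1 group was measured. Alternatives were read against the replicate SD. Single replicates gave 3.48 nt to 10.9 nt for α minus β, 89.1 nt to 98.6 nt for α, 85.6 nt to 87.7 nt for β, 82.6 nt to 92.2 nt for the median member, 54.0% to 57.4% for tails over 90 nt, 0% to 0.125% for tails of 1 to 5 nt and 2.20% to 3.23% for tails ending in T. The difference between α and β reversed to -0.414 nt without Tuba1a, and was 13.4 nt without Tuba4a and 13.6 nt without Tubb5. With Tuba3a and Tubb3 added it was 6.04 nt, less than 1 SD away, but 0.011 nt in replicate 1 alone. With the arithmetic mean, α had 106.6 nt, β 99.6 nt and the median member 98.8 nt. With the median, they had 104 nt, 98 nt and 98.25 nt. Without the most abundant gene of each class, α had 86.5 nt and β 81.3 nt. With genes weighted equally β had 82.4 nt. All other alternatives run for these 7 values moved them by less than the replicate SD. For single genes, 75 of 100 values did so. The depth limits Tubb6, Tubg1, Tuba1b and Tubb2a most, with 14 to 57 transcripts in a replicate.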
